A study of Mus musculus with 21 samples.

Results

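The machinery with which a cell folds and secretes protein was followed as 44 genes of the endoplasmic reticulum (ER), chosen by symbol from the 56953 genes in the count tables: chaperones, the translocon, N-glycosylation, ER-associated degradation (ERAD) and factors of the unfolded protein response. RNA had been measured by bulk sequencing in 21 libraries of B cells sorted from the peritoneal cavity of C57BL/6 mice. WT mice gave 10 libraries, 4 of B-1a, 4 of B-1b and 2 of B-2 cells, and mice with a global TET2 knockout (TET2-KO) gave 4, 3 and 4 of the same. The knockout carries a deletion of the exons that encode the catalytic part of TET2, in every cell of the mouse and not only in B cells. B-1a and B-1b cells were gated as cells with low IgD, CD23 and B220, with and without CD5. The mice are described as young, and ages in weeks and sexes are not given in the sources used here. For B-1a and B-1b cells the study's legends count as many mice as there are libraries, and p-values measure the spread between these libraries.

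An antibody chain enters the ER through the translocon while it is being made, loses its signal peptide to signal peptidase and receives N-glycans from the oligosaccharyltransferase. Chaperones of the HSP70 and HSP90 families, the lectins calnexin and calreticulin and the disulfide isomerases then fold it, and chains that fail to fold are passed to ERAD for destruction in the cytosol. The unfolded protein response adjusts this capacity through 3 sensors, IRE1, PERK and ATF6, and a B cell enlarges its ER greatly when it becomes a plasma cell. B-1 cells are known as a source of natural IgM, while most peritoneal B-2 cells are resting.

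Libraries held between 9667187 and 24152518 counted fragments (median 17425219). Each of the 44 genes passed the filter on low counts in every fit, and the lowest count of any of them in any library was 74, for Derl3. Together they took 0.614% to 1.07% of the counts of a library. The B cell markers Cd79a, Cd79b, Ms4a1, Pax5 and Ebf1 were present in all 21 libraries, with summed levels of 10218 to 26766 CPM (counts scaled to library size, with TMM factors over all libraries). Macrophage markers, led by Lyz2, were also present in each group, at summed levels of 4362 to 30458 CPM over 12 genes. In bulk RNA, fewer cells of a type and less RNA per cell cannot be told apart. The count of Tet2 covers all of its exons, also those that the deletion leaves, and was 12.6 to 30.3 CPM in TET2-KO against 8.46 to 27.2 in WT libraries, so it does not check the genotype.

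The 5 libraries labelled WT 1 or WT 2 stood apart from the other 16. Reads on olfactory receptor genes, which B cells are not known to use, made 6.26 to 11.7 CPM there and 73.4 to 2003 CPM elsewhere. In 3 of these 5 libraries the subset markers also went against the labels. The summed level of 5 B-2 markers, Fcer2a, Cr2, Ighd, Ccr7 and Cd55, was 6172 CPM in the library labelled B-1a WT 1 and 5055 CPM in that labelled B-1b WT 2, but 1027 CPM in that labelled B-2 WT 1. In the TET2-KO libraries it was 3156 to 5836 CPM in B-2 cells and 619 to 900.4 CPM in B-1a cells. The comparison of B-1 with B-2 cells therefore rests on the TET2-KO libraries, and each comparison with WT is given with and without the 5 libraries.

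The highest mean level over the 21 libraries was that of Pdia4, a disulfide isomerase, at 240.0 CPM per kilobase of gene model, followed by its relative Pdia3 at 228, calreticulin (Calr) at 184, the ERAD factor Herpud1 at 151 and the HSP70 chaperone BiP (Hspa5) at 142. At the other end were Lman1, the cargo lectin of ER exit, at 4.38 CPM per kilobase, and the stress sensor Atf6 at 5.93. The 5 oligosaccharyltransferase genes lay between 17.9 (Stt3a) and 131 (Ddost), and the 12 genes of translocon and signal peptidase between 8.92 (Ssr1) and 134 (Spcs1). The genes also differed in how much they varied between libraries. Derl3, a derlin of ERAD, had the highest coefficient of variation at 62.6%, ahead of Stt3b at 48.3%, Calr at 41.1%, Pdia4 at 40.6% and Spcs3 at 40.5%. Lman1 at 13.95% and Atf4, the factor of the PERK arm, at 14.4% varied least.

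**Figure D1:**
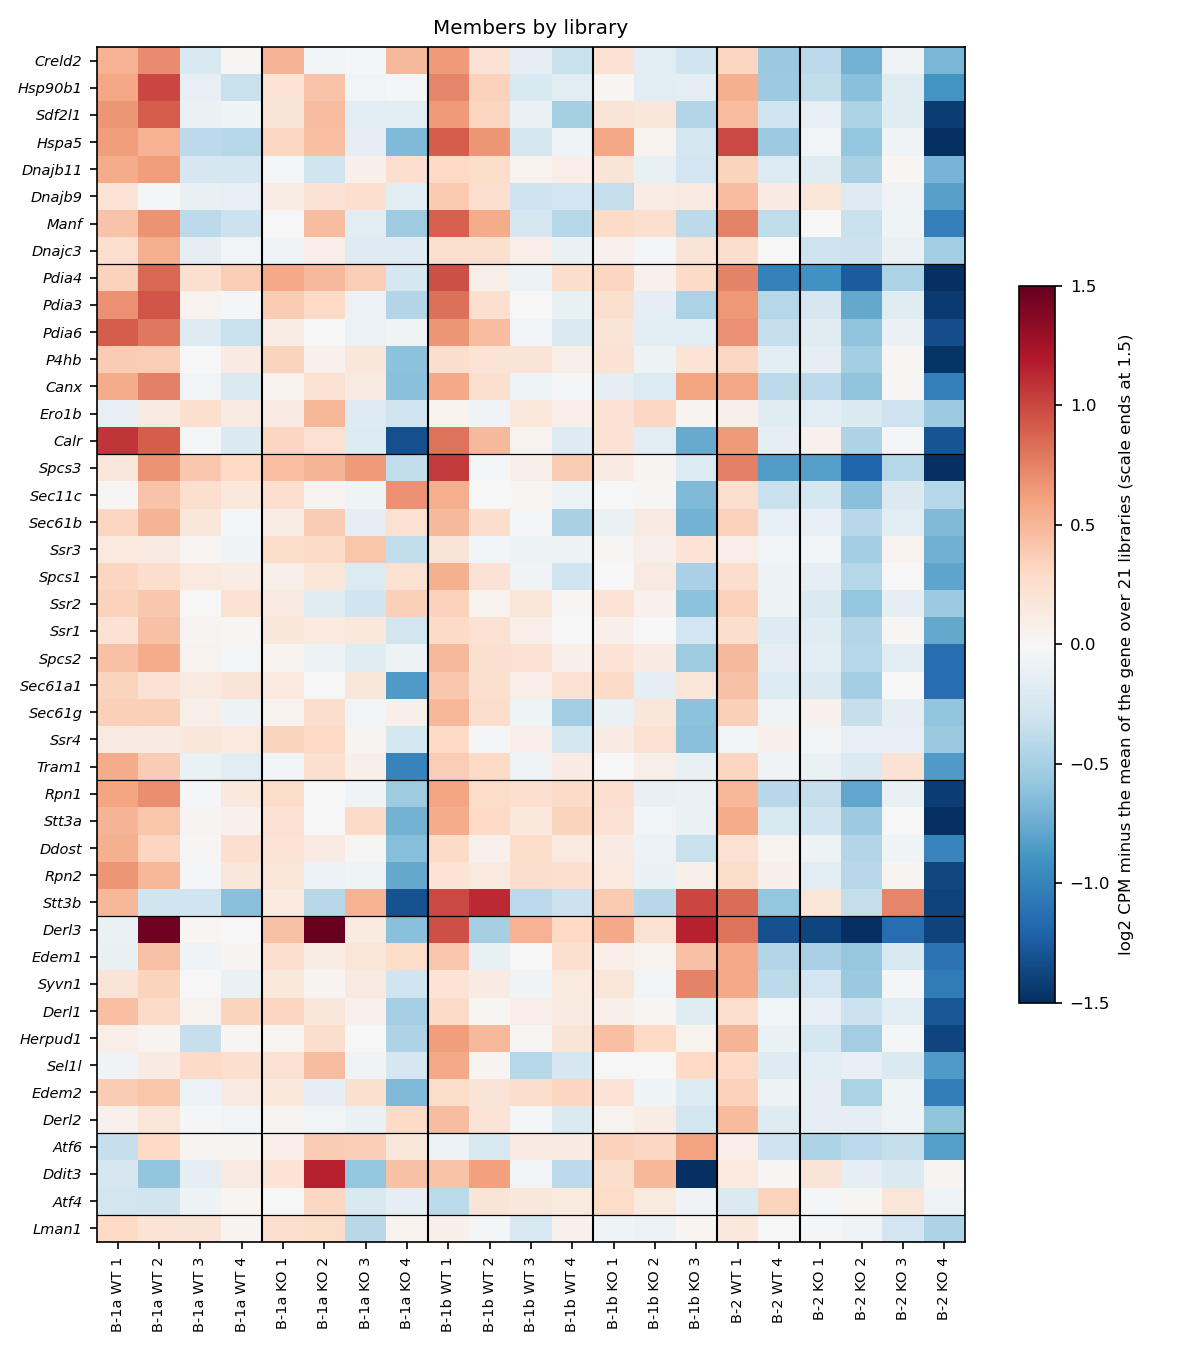
Level of each of the 44 genes (lines, grouped by role) in each of the 21 libraries (columns, grouped by subset and genotype), as log2 CPM minus the mean of the gene over all libraries; red is above the mean, blue below, and the colour scale ends at 1.5 on either side. The libraries labelled WT 1 and WT 2 are mostly red, B-2 TET2-KO 4 is the bluest column, and Pdia4, Spcs3 and Derl3 are blue in each B-2 column but that labelled B-2 WT 1.

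The ER stress response element (ERSE) is a sequence known to be bound by ATF6 and XBP1 together with NF-Y, which reads CCAAT, 9 bases of any kind and CCACG, and it was sought on both strands in windows from 250 bases before to 50 bases after each gene start (RefSeq, GRCm38.p6). A window was held for 35 of the 44 genes, and 10 of these (28.6%) had the element, against 37 of 27025 genes in all (0.137%) and 0 of 79 other ER and secretory genes with a window. The 11 matches are shown 5′ to 3′ in the orientation of the motif, with its fixed letters in capitals, to let the spacers be compared.
Calr: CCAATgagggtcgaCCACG
Canx: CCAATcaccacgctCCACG
Creld2: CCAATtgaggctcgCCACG
Derl3: CCAATggggaagtcCCACG
Dnajc3: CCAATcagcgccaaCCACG
Ero1b: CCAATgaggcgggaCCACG
Hsp90b1 (distal): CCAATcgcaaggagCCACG
Hsp90b1 (proximal): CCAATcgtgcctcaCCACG
Hspa5: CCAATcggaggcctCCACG
Pdia6: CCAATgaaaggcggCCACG
Syvn1: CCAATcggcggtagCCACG
The match lay 44 to 212 bases before the start, nearest in Syvn1 and farthest in Hsp90b1, which had 2. The carriers were Hspa5, Hsp90b1, the co-chaperone Dnajc3 and Creld2, the lectins Calr and Canx, Pdia6, the oxidase Ero1b, and the ERAD genes Derl3 and Syvn1. A match is a description of letters and not evidence of binding. The 44 genes were chosen for roles in ER folding and the unfolded protein response, so their share is not a test of the list.

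The upstream 250 bases of 3 genes are given whole: Hspa5, the reference target of the response, Derl3, the gene that varied most, and Herpud1, which held ERSE-II (ATTGG, 1 base of any kind and CCACG) and a C/EBP-ATF element (TGATGCAA) in place of ERSE. The matches are in capitals.
Hspa5, chr2:34771840-34772089, strand +: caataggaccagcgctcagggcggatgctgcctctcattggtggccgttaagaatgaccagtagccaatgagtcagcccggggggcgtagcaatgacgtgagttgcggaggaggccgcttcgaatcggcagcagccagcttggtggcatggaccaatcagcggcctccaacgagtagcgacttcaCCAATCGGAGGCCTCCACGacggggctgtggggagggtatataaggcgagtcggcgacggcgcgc
Derl3, chr10:75893148-75893397, strand +: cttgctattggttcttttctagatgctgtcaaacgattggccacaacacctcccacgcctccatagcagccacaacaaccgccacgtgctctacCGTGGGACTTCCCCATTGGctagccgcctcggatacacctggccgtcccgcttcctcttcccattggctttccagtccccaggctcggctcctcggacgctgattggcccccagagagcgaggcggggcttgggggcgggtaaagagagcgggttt
Herpud1, chr8:94386179-94386428, strand +: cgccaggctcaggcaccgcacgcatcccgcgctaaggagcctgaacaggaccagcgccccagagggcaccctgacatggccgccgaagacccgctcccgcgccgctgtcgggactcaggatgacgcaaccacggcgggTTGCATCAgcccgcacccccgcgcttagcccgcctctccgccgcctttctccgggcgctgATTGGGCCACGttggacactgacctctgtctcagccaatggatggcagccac
The ERSE of Derl3 and the C/EBP-ATF element of Herpud1 are on the minus strand, so that each stands as its reverse complement in its line. ERSE-II was found in 2 of the 35 genes, Herpud1 and Dnajb11, and in 12 of 27025 genes (0.0444%). The C/EBP-ATF element was found in 1 of the 35 (Herpud1) and in 1.03% of all genes, and the core TGACGTGG of the XBP1 element in 0 of the 35, in 9 of the 79 other genes and in 0.714% of all genes.

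B-1 and B-2 cells of the TET2-KO mice differed in a small number of the genes, and each difference that passed the test was towards B-1 cells. Of the 44 genes, 5 were higher in B-1a than in B-2 cells and 0 were lower (edgeR quasi-likelihood test, adjusted p under 0.05), where 3.26% of all 18555 genes tested were higher and 2.57% lower. The 5 were Derl3, Pdia4, Spcs3 (a subunit of signal peptidase), Edem1 (which trims mannose from glycoproteins bound for ERAD) and Atf6, so that they came from 4 of the 7 roles. The log2 fold change was positive for 42 of the 44, with a median of 0.40 against -0.05 over all genes tested. It was positive for 78 of 95 other ER and secretory genes, with a median of 0.23. Over 5 B cell markers the median was 0.23 as well.

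Derl3 was at 24.1, 52.9, 19.5 and 11.5 CPM in the 4 B-1a libraries and at 6.82, 5.22, 8.01 and 6.77 CPM in the 4 B-2 libraries. Each B-1a library lay above each B-2 library, and the B-2 values were the tighter. The log2 difference was 1.98 ± 0.38 (SE, adjusted p = 0.00493). In B-1b cells Derl3 was at 26.3, 20.8 and 39.6 CPM, again above every B-2 library. The log2 difference from B-2 cells was 2.06 ± 0.40 (adjusted p = 0.0116), and the call was lost without B-2 TET2-KO 2 (1.95, adjusted p = 0.0640) or B-1b TET2-KO 3 (1.73, adjusted p = 0.0883). Its relatives Derl1 and Derl2 differed less, by 0.42 ± 0.24 and 0.25 ± 0.17 in B-1a cells (adjusted p = 0.286 and 0.387, and 0.0479 for Derl1 with replicate numbers as a block).

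Pdia4 was at 768, 728, 666 and 436 CPM in B-1a cells, at 646, 539 and 632 in B-1b cells and at 276, 218, 374 and 128 in B-2 cells. No B-2 library reached the lowest B-1 library. The log2 difference from B-2 was 1.36 ± 0.27 in B-1a (adjusted p = 0.00673) and 1.25 ± 0.29 in B-1b cells (adjusted p = 0.0334). The B-1b call was lost in 6 of the 7 fits with 1 library left out, all but that without B-2 TET2-KO 3, with differences of 1.04 to 1.43 over the 7. The other 3 isomerases were closer: P4hb, the founding enzyme PDI, was at 243, 202, 216 and 125 CPM in B-1a, at 224, 183 and 223 in B-1b and at 175, 136, 195 and 69.6 in B-2 cells, so that the groups overlapped. Pdia3, which works with the lectin chaperones, and Pdia6 differed by 0.63 ± 0.27 and 0.44 ± 0.22 between B-1a and B-2 cells (adjusted p = 0.168 and 0.229), and Pdia3 and P4hb passed with the replicate block (adjusted p = 0.0442 and 0.0456).

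Spcs3 was at 177, 183, 201 and 99.9 CPM in B-1a and at 72.5, 56.4, 95.6 and 40.2 CPM in B-2 cells, with 1 B-1a library close to the highest B-2 library. The log2 difference was 1.29 ± 0.26 (adjusted p = 0.00645). In B-1b cells it was at 141, 132 and 112 CPM, above the B-2 range, and the difference of 0.92 ± 0.27 did not pass (adjusted p = 0.0956). The partner subunits Spcs1 and Spcs2 differed by 0.37 ± 0.20 and 0.32 ± 0.22 in B-1a cells and did not pass. Sec11c, a catalytic subunit of the same enzyme, was at 493, 426, 397 and 665 CPM in B-1a, at 415, 420.5 and 262 in B-1b and at 345, 268, 356 and 308 in B-2 cells. All 4 B-1a values were above the B-2 values, but 1 B-1b value was below them, and neither difference passed (adjusted p = 0.103 in B-1a).

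Atf6 was at 57.2, 69.4, 68.9 and 60.1 CPM in B-1a, at 67.9, 65.8 and 80.8 in B-1b and at 38.4, 40.1, 41.6 and 30.1 in B-2 cells. The gap between the groups was wider than the spread in any of them, and the log2 difference was 0.74 ± 0.16 in B-1a (adjusted p = 0.0130) and 0.89 ± 0.17 in B-1b cells (adjusted p = 0.0122). The factors of the PERK arm were not called. Atf4 was at 119.9, 148, 102 and 108 CPM in B-1a and at 117, 122, 136 and 114 CPM in B-2 cells, a log2 difference of -0.06 ± 0.17. Ddit3, which encodes CHOP, ranged from 14.7 to 49.5 CPM in B-1a, from 6.46 to 31.1 in B-1b and from 18.9 to 25.2 in B-2 cells, with overlap between all of them.

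Edem1 was at 97.7, 88.5, 93.2 and 99.1 CPM in B-1a cells, with little spread, at 88.1, 84.8 and 111 in B-1b and at 58.4, 55.2, 69.3 and 38.0 in B-2 cells. The log2 difference was 0.75 ± 0.18 in B-1a (adjusted p = 0.0232) and 0.74 ± 0.19 in B-1b cells (adjusted p = 0.0629). The B-1a call was lost in 4 of the 8 fits with 1 library left out, those without B-1a TET2-KO 1 or 3 or B-2 TET2-KO 1 or 2, with differences of 0.62 to 0.80 over the 8. Herpud1 overlapped between B-1a (346, 406, 340.1 and 245 CPM) and B-2 cells (283, 235, 335 and 130.1 CPM), and was at 461, 417 and 349 CPM in B-1b cells, above each B-2 library. Its difference from B-2 cells was 0.70 ± 0.27 in B-1b (adjusted p = 0.177). The other ERAD genes were higher in B-1a cells by 0.25 (Derl2) to 0.42 (Syvn1, the ubiquitin ligase HRD1) and did not pass.

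Neither Hspa5 nor Hsp90b1 was called in the main fit, and with the replicate block Hsp90b1 was called and Hspa5 was not. Hspa5 was at 686, 751, 503 and 349 CPM in B-1a, at 822, 570.2 and 459.7 in B-1b and at 535, 367, 533 and 174 in B-2 cells. The groups overlapped, and the log2 difference was 0.48 ± 0.32 in B-1a cells (adjusted p = 0.376). Hsp90b1, the HSP90 of the ER, was at 394, 458, 332 and 336 CPM in B-1a, at 347, 306 and 307 in B-1b and at 263, 221, 302 and 183 in B-2 cells, and no B-2 library reached a B-1 library. Its log2 difference of 0.62 ± 0.19 in B-1a cells did not pass (adjusted p = 0.0631), but passed with the replicate number as a block (adjusted p = 0.0273). The 8 genes of this role had a median difference of 0.39 from B-2 in B-1a cells, and of 0.34 in B-1b cells.

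The general entry and glycosylation machinery had medians of 0.35 and 0.28 between B-1a and B-2 cells. Sec61b, a translocon subunit, was at 172, 208, 145 and 186 CPM in B-1a, at 148, 174 and 97.6 in B-1b and at 146, 119, 142 and 101 in B-2 cells. Ssr4, a subunit of the translocon-associated TRAP complex, was at 232, 227, 190.3 and 154 CPM in B-1a, at 201, 216 and 119 in B-1b and at 180.0, 169, 169 and 125 in B-2 cells. In both genes a B-1a library reached into the B-2 range, and neither passed. Rpn1, an oligosaccharyltransferase subunit, was at 255, 211, 203 and 145 CPM in B-1a, at 249.9, 194 and 197 in B-1b and at 164, 123, 195 and 78.6 in B-2 cells, a log2 difference of 0.51 ± 0.25 in B-1a cells (adjusted p = 0.214, and 0.0450 with the replicate block). Lman1 overlapped between all 3 subsets, at 45.7, 46.4, 28.6 and 39.7 CPM in B-1a, at 36.4, 36.1 and 39.2 in B-1b and at 37.8, 36.8, 31.4 and 27.8 in B-2 cells.

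**Figure D2:**
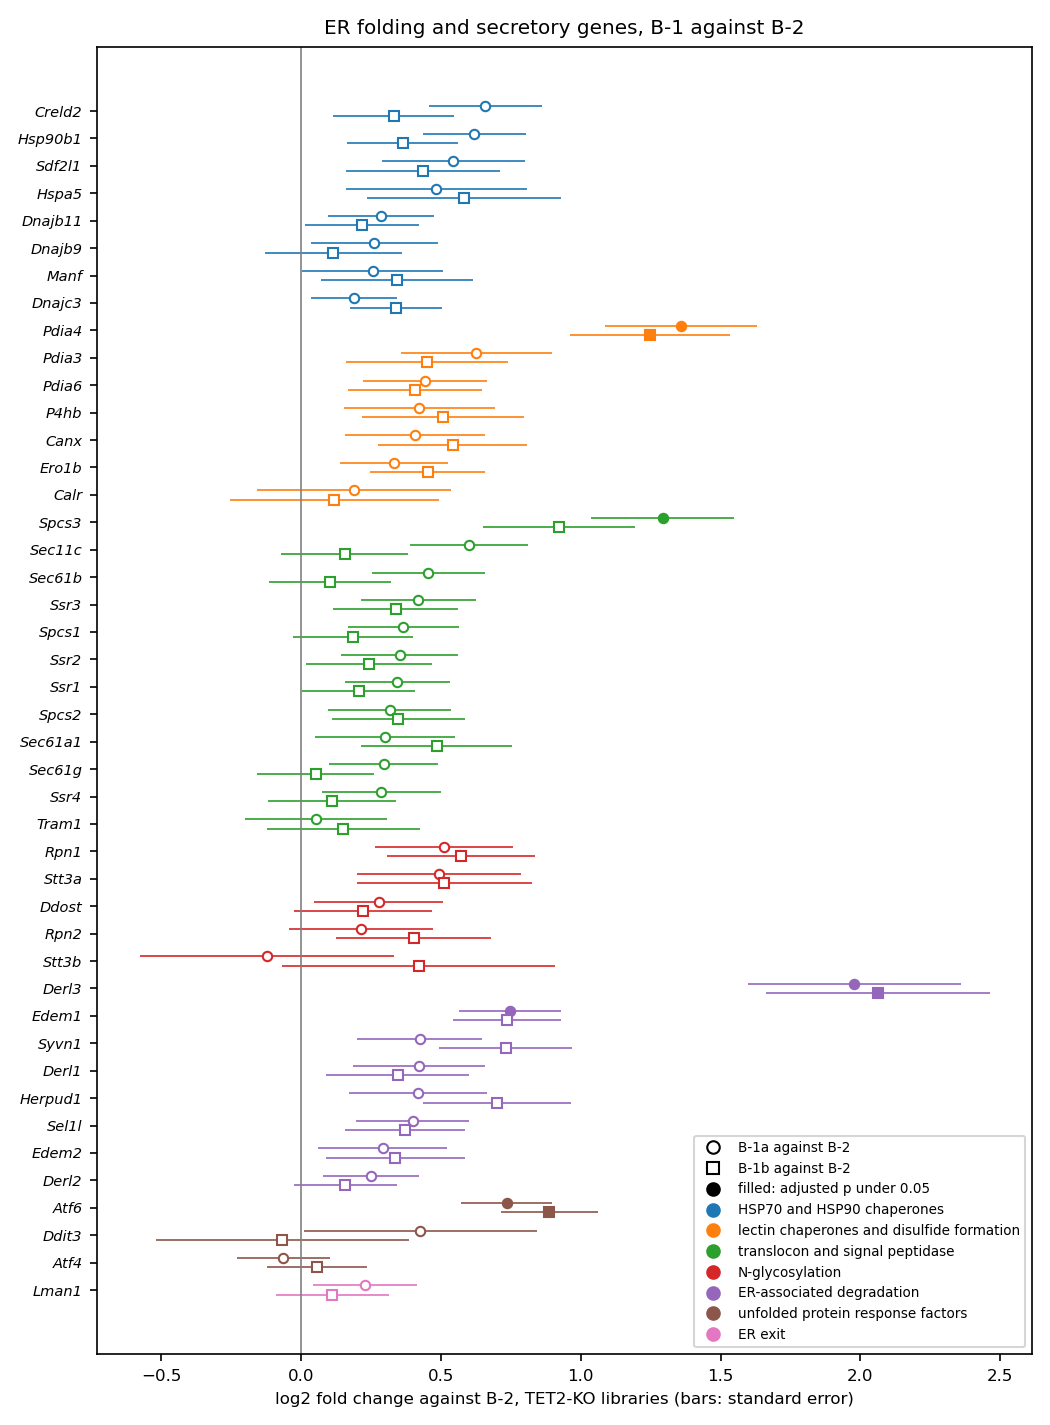
Log2 fold change of each of the 44 genes against B-2 cells in TET2-KO libraries (x axis) for B-1a cells (circles) and B-1b cells (squares), with standard errors; colours are roles and filled symbols have an adjusted p under 0.05. Derl3 lies near 2 in both subsets, Pdia4 and Spcs3 between 0.92 and 1.36, and most other genes between 0 and 0.75.

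The replicate numbers of the labels carried information in this comparison, since same-numbered B-1a and B-2 TET2-KO libraries deviated together (correlation of their deviations from the group means 0.352 to 0.680). With the replicate block, 12 of the 44 genes were higher in B-1a cells and 0 lower, against 5.5% of all genes higher and 3.33% lower. These were the 5 named above with Hsp90b1 (adjusted p = 0.0273), Creld2 (0.0450), Pdia3 (0.0442), P4hb (0.0456), Rpn1 (0.0450), Stt3a, the co-translational catalytic subunit (0.0396), and Derl1 (0.0479). DESeq2 called 7 members higher in B-1a cells, against 3.47% of all genes. In B-1b cells 3 of the 44 genes were higher than in B-2 cells and 0 lower (Derl3, Pdia4 and Atf6), where 1.52% of all genes were higher and 0.631% lower. The fit with the replicate block called 5 higher (2.47% of all genes; 1.13% lower), adding Edem1 and Spcs3, and DESeq2 also called 5 (2.28%), but the replicate numbers were not shown to pair B-1b with B-2 libraries (lowest correlation 0.035). The median difference over the 44 genes was 0.35 in B-1b cells, against -0.10 over all genes, and the comparison shares its B-2 libraries with that of B-1a cells. Over the 95 other ER and secretory genes the B-1b median was 0.29, with 82 positive, and over the 5 B cell markers 0.28.

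These counts rested on the B-2 libraries. B-2 TET2-KO 2 and 4 had the lowest totals and the most reads on olfactory receptor genes (1618 and 2003 CPM, against 270.0 and 694 in the other two), and B-2 TET2-KO 4 was the lowest of all 21 libraries for 33 of the 44 genes. The share of all genes lowest in that library was not counted. It had the highest TMM factor (1.54) and the lowest summed B cell (10218 CPM), macrophage (4362 CPM) and cytosolic heat shock (836 CPM) markers, but not the lowest plasma cell or mast cell markers. Without B-2 TET2-KO 2 and 4, 0 of the 44 genes passed in either B-1 subset (1.33% of all genes were higher in B-1a and 0.472% in B-1b cells), and the median difference was 0.14 in B-1a and 0.09 in B-1b cells. That fit had 2 B-2 libraries left. It kept B-1a TET2-KO 2 and 4, which deviated together with the B-2 libraries of the same number (correlation 0.352 and 0.680). The part of this imbalance in the smaller differences was not tested. The leading differences were smaller as well: in B-1a cells Derl3 at 1.85 (adjusted p = 0.127), Pdia4 at 0.98 (0.0735), Spcs3 at 0.96 (0.119), Atf6 at 0.66 (0.134) and Edem1 at 0.55 (0.241). These genes were picked by their calls with both libraries included. The part of these libraries' composition in the differences, leading or small, was not tested.

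Markers of antibody-secreting cells moved in part with the subsets. Over 6 plasma cell markers, none of which was at 0 in every library of a group, the summed level was 58.4 to 115 CPM in B-1a, 115 to 164 in B-1b and 90.3 to 131 in B-2 TET2-KO cells. Jchain, the joining chain of polymeric IgM, was at 15.8, 4.02, 11.2 and 5.75 CPM in B-1a, at 20.5, 46.8 and 18.2 in B-1b and at 0.778, 2.96, 0.967 and 2.84 in B-2 cells. Each B-1 library lay above each B-2 library in Jchain. Jchain and Prdm1 were called higher and Slamf7 lower in B-1a than in B-2 cells, with log2 differences of 2.25, 1.93 and -1.06 (adjusted p = 0.0226, 0.0209 and 0.0375). Sdc1, the plasma cell surface marker, was at 0 CPM in B-1a TET2-KO 4 and in B-1b TET2-KO 3, and at most 2.89 CPM in the other B-1 TET2-KO libraries, against 4.20 to 5.92 CPM in B-2 TET2-KO cells. The part of plasma cells in the differences was not tested.

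Of 98 further ER and secretory genes, 96 were found and 95 tested in this comparison; 5 were higher in B-1a cells and 0 lower, and 2 were higher in B-1b cells and 0 lower, against the 3.26% and 1.52% of all genes called higher. Mzb1, a partner of BiP and GRP94 that assists IgM assembly, was at 114, 111, 85.0 and 72.9 CPM in B-1a, at 105, 108 and 62.3 in B-1b and at 32.1, 33.5, 42.4 and 19.8 in B-2 cells. All B-1 values were above the B-2 values, by 1.55 ± 0.25 in B-1a (adjusted p = 0.00117) and 1.49 ± 0.26 in B-1b (adjusted p = 0.00534) on the log2 scale. The others called in B-1a were the stress-induced factor Atf3 at 2.50 ± 0.36, asparagine synthetase (Asns) at 2.26 ± 0.54, the membrane-bound factor Creb3l2 at 1.79 ± 0.38 and the folding factor Erp29 at 0.77 ± 0.19, and Atf3 was called in B-1b cells too, at 2.29 ± 0.38. The Asns call was lost in 5 of the 8 fits with 1 library left out, each of the 4 without a B-2 library and that without B-1a TET2-KO 2, where the difference was 1.45. That of Creb3l2 was lost without B-2 TET2-KO 2 (1.66, adjusted p = 0.0576). Xbp1, the factor of the IRE1 arm, was at 182, 192, 179 and 90.5 CPM in B-1a, at 228, 202 and 235 in B-1b and at 185, 127, 186 and 70.7 in B-2 cells. B-1a and B-2 cells overlapped in Xbp1, and the difference was 0.15 ± 0.28 (adjusted p = 0.789).

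**Figure D3:**
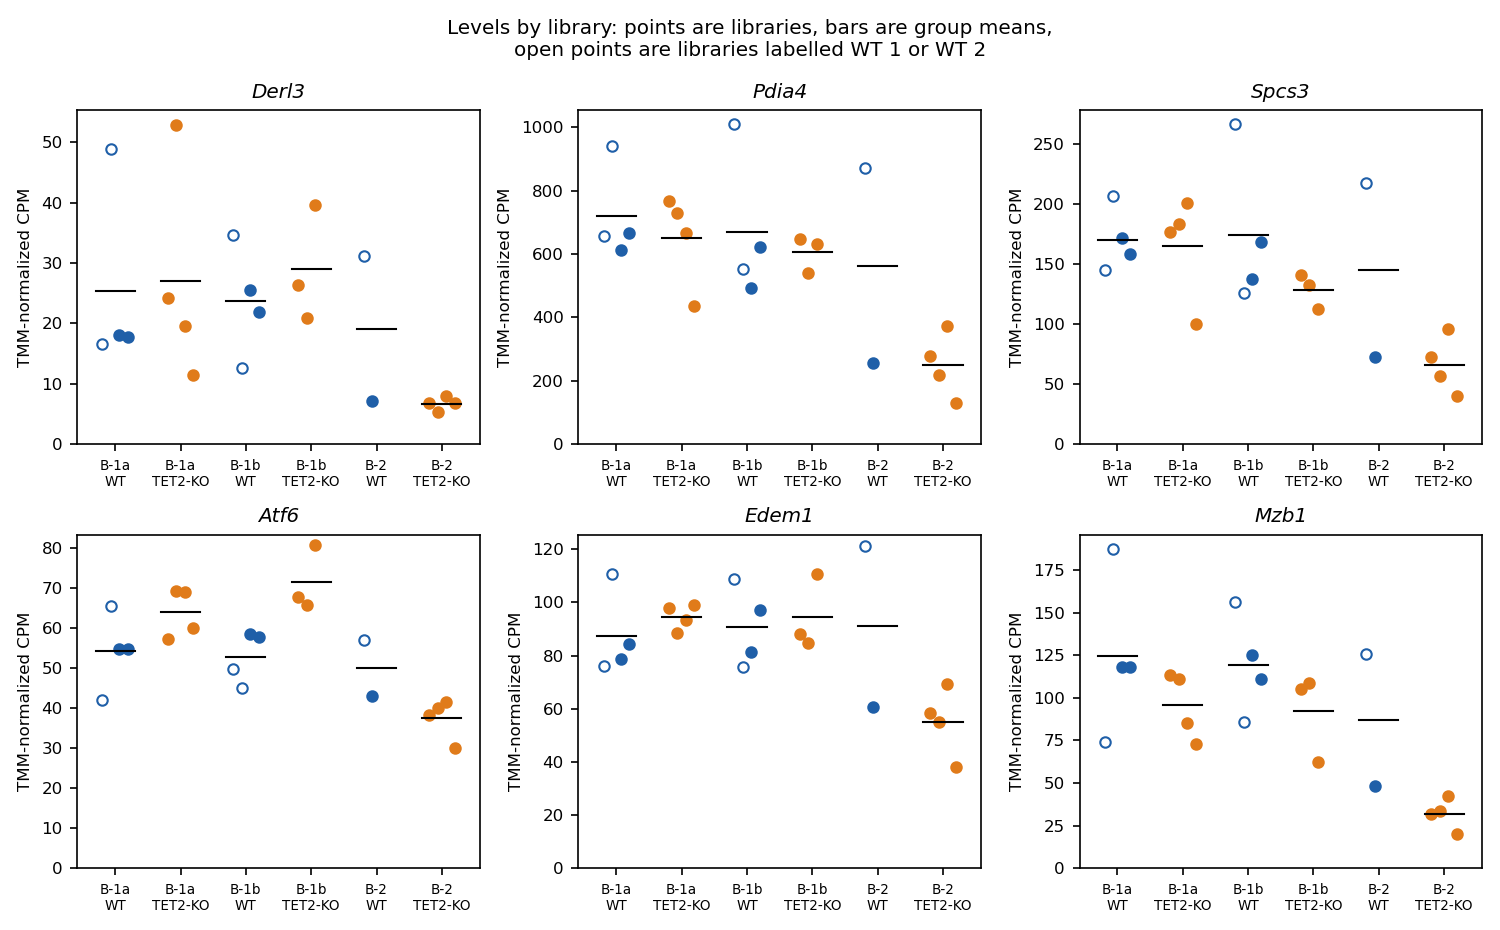
TMM-normalized CPM (y axis, from 0) of the 5 genes called between B-1a and B-2 TET2-KO cells and of Mzb1 in each library by group; blue is WT, orange TET2-KO, open points are libraries labelled WT 1 or WT 2, and bars are group means. The 4 B-2 TET2-KO points and the filled B-2 WT point sit low in each panel, and the open B-2 WT point lies above them.

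For WT cells the values are given without a test, since only 1 B-2 library, B-2 WT 4, is left beside that labelled B-2 WT 1. Pdia4 was at 614 and 667 CPM in B-1a WT 3 and 4, at 492 and 622 in B-1b WT 3 and 4 and at 256 in B-2 WT 4. Derl3 was at 18.1 and 17.8, at 25.5 and 21.8, and at 7.10 CPM in the same libraries. In the libraries labelled WT 1 and WT 2 the order was another: Derl3 was at 16.6 and 48.8 CPM in those labelled B-1a, at 34.7 and 12.5 in those labelled B-1b and at 31.2 in that labelled B-2. The lowest 2 of these 5 values were those of the libraries with the high B-2 marker sums, and the same 2 were lowest for Pdia4 (656 and 552 CPM against 869.8 to 1009), Spcs3 (145 and 126 against 206 to 267) and Mzb1 (74.0 and 86.1 against 126 to 187).

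Between the B-1 subsets no member passed with all libraries included. B-1a and B-1b cells of TET2-KO mice differed in 0 of the 44 genes (0.205% of all genes were called; 0 of the 44 had an unadjusted p under 0.05, and DESeq2 also called 0, where it called 0.727% of all genes), with a median log2 difference of 0.05. The replicate block called 0 as well (0.555% of all genes). The smallest p-values were those of Sec11c, Sec61b and the stress-induced Creld2, with differences of 0.44 ± 0.23, 0.35 ± 0.22 and 0.33 ± 0.22 (adjusted p = 0.858 each). Creld2 was at 119, 81.0, 81.9 and 117 CPM in B-1a and at 97.2, 74.3 and 67.9 CPM in B-1b cells, so that the groups overlapped. In WT cells 0 of the 44 genes were called as well (0% of all genes, also with DESeq2). The smallest p-values there belonged to Herpud1 (-0.39 ± 0.18), Lman1 (0.20 ± 0.11) and Ddit3 (-0.39 ± 0.22). With the libraries labelled WT 1 and WT 2 left out, 1 gene was higher in B-1a cells, where 2.16% of all genes were (3.22% in either direction): Sel1l, the adaptor of HRD1, at 99.5 and 97.2 against 60.7 and 68.5 CPM (log2 difference 0.62, adjusted p = 0.00845).

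Loss of TET2 left no call among the 44 genes in any subset. In B-1a cells 0 of the 44 were called (0.0503% of all genes) and 0 had an unadjusted p under 0.05 (DESeq2 also called 0, and 1.02% of all genes), with a median log2 fold change, TET2-KO over WT, of -0.09 against 0.02 over all genes. Single genes ranged from -0.62 (Calr) to 0.66 (Ddit3). Rpn2, an oligosaccharyltransferase subunit with the smallest p, was at 229, 189.8, 193 and 119 CPM in TET2-KO and at 319, 285, 198 and 227 CPM in WT cells (-0.46 ± 0.21, adjusted p = 0.628). The 2 highest WT values were those labelled WT 1 and WT 2. Next came Spcs2, at 335, 309, 287 and 308 against 444, 478, 339 and 320.2 CPM (-0.31 ± 0.15), and Ddit3, at 25.3, 49.5, 14.7 and 29.8 against 18.5, 14.6, 19.9 and 24.2 CPM (0.66 ± 0.33). With the libraries labelled WT 1 and WT 2 left out, Rpn2 was at -0.21, Spcs2 at -0.08, Ddit3 at 0.44 and Calr at 0.01, and the 44 genes ranged from -0.24 to 0.59. The median of that fit was 0.05 and again 0 were called (0% of all genes).

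In B-1b cells 0 of the 44 genes were called (0% of all genes), and 1, Atf6, had an unadjusted p under 0.05 (DESeq2 called 0, and 0.398% of all genes). Atf6 was at 67.9, 65.8 and 80.8 CPM in TET2-KO and at 49.9, 45.0, 58.6 and 57.8 CPM in WT cells. Each TET2-KO value was above each WT value, and the log2 fold change was 0.47 ± 0.17 (adjusted p = 0.838), or 0.30 when those labelled WT 1 and WT 2 are left out. The next were Rpn1 at -0.31 ± 0.16 and Stt3a at -0.29 ± 0.15, the latter at 176, 148 and 142 against 224, 186, 169.9 and 192 CPM. The median over the 44 genes was -0.15 with all libraries and 0.07 without the 2 labelled WT 1 and WT 2. The 2 B-1 subsets were compared directly for their response to the knockout, and 0 of the 44 genes differed (interaction term, 0% of all genes, 0 of the 44 at an unadjusted p under 0.05; DESeq2 called 0 of the 44, and 0.00241% of all genes). The largest difference was that of Ddit3, 0.88 ± 0.60. It was 0.28 when the libraries labelled WT 1 and WT 2 are left out, where the 44 genes ranged from -0.59 to 0.39 and 0 were called (0% of all genes).

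In B-2 cells each of the 44 log2 fold changes was negative, with a median of -0.49 against 0.18 over all genes, and 0 of the 44 were called (0% of all genes; 2 had an unadjusted p under 0.05; DESeq2 called 0, and 0.855% of all genes). The median was also negative over 94 other ER and secretory genes, at -0.38 with 8 positive, and over 5 B cell markers, at -0.51. This comparison has 2 WT libraries, 1 of which is the library labelled B-2 WT 1 whose markers go against its label. The 3 smallest p-values were those of Derl3 (-1.48 ± 0.48), Spcs3 (-1.11 ± 0.44) and Pdia4 (-1.15 ± 0.51), with an adjusted p of 0.531 each. For Derl3 the 2 WT values were 31.2 and 7.10 CPM, and B-2 WT 4 lay within the TET2-KO range of 5.22 to 8.01. Without the library labelled B-2 WT 1 these 3 values were -0.07, -0.11 and -0.02, and the median was -0.15. Of the other secretory genes, 0 of 93, 93 and 94 tested were called in the B-1a, the B-1b and the B-2 comparison.

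**Figure D4:**
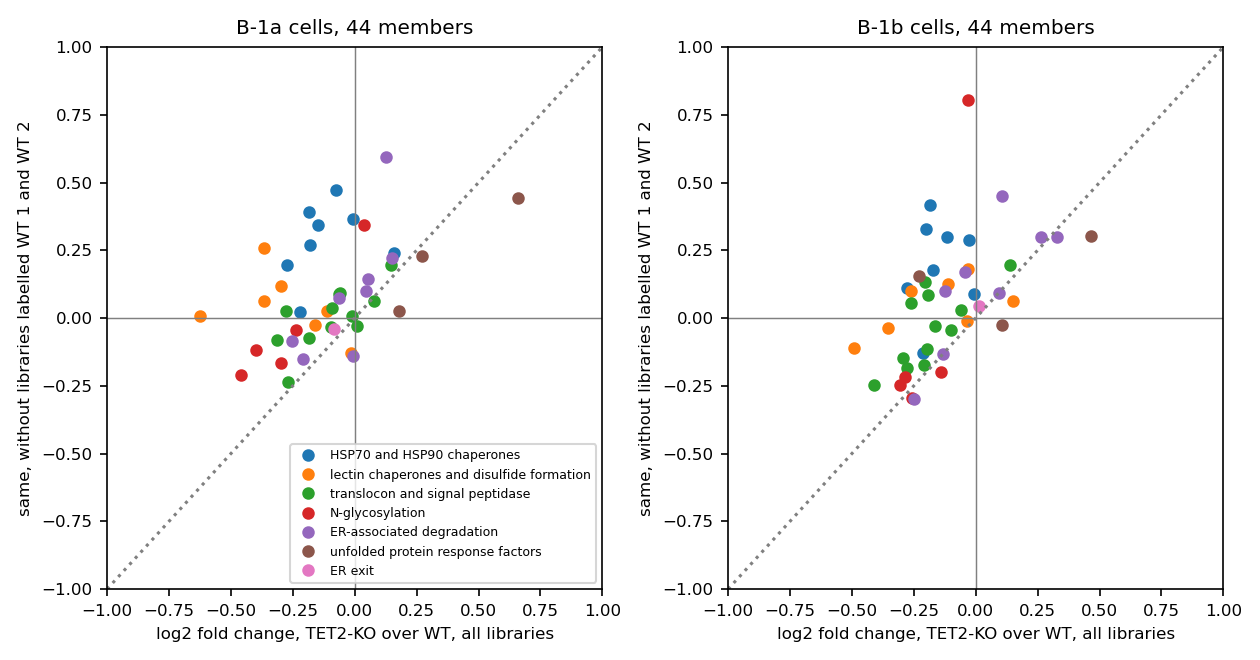
Log2 fold change of the 44 genes, TET2-KO over WT, with all libraries (x axis) and without those labelled WT 1 and WT 2 (y axis), in B-1a cells (left) and B-1b cells (right); colours are roles and the dotted line marks equal values. Most points lie above the line. In the left panel the median is -0.09 on the x axis and 0.05 on the y axis, and in the right panel -0.15 and 0.07.

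Chaperones were among the genes that were high in the libraries labelled WT 1 and WT 2. In 20 of the 44 genes each of the 5 libraries lay above each of the other 5 WT libraries, and in 0 genes below, where 5.47% of all 22597 genes that passed the filter lay above and 14.2% below. The median ratio of means was 1.30 over the 44 genes, and on the log2 scale it was 0.38 (with 0.5 CPM added) against -0.17 over all genes. The TMM factors were 0.753 to 0.869 in the 5 libraries and 0.929 to 1.07 in the other 5. As unscaled shares of the counts, the 44 genes took 0.905% to 1.07% against 0.734% to 0.900%. The 5 libraries also held fewer detected genes (18074 to 19255 against 25898 to 29339), which bears on the median over all genes. Of the other secretory genes 42 of 96 lay above and 2 below, and of the B cell markers Cd79a and Cd79b lay above, with ratios of 1.33 and 1.36. Hspa5 was at 854, 791, 1037, 874 and 1092 CPM in the libraries labelled B-1a WT 1 and 2, B-1b WT 1 and 2 and B-2 WT 1. In B-1a WT 3 and 4, B-1b WT 3 and 4 and B-2 WT 4 it was at 420.1, 408, 458, 526 and 377 CPM, with a gap between the highest of these and the lowest of the first 5. Hsp90b1 was at 510.4, 684, 565, 432 and 495 against 313, 269, 291, 303 and 233 CPM in the same order. Xbp1 was at 266, 265, 256, 248 and 279 against 124, 156, 179, 186 and 147 CPM, again without overlap. The TET2-KO libraries reached from 174 to 822 CPM in Hspa5 and so overlapped both sets.

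Members of other roles overlapped between those 2 sets of libraries in part. Ssr4 was at 203, 201, 226, 181 and 179.5 CPM against 207, 205, 197, 153 and 195, and Sec61b at 199.8, 227, 224, 190.4 and 203 against 179, 157, 157, 114 and 146 CPM, of which Sec61b did not overlap. Sec11c was at 418, 556, 602, 413 and 494 against 494, 461, 421, 391 and 327 CPM, with overlap. P4hb was at 250.01, 248, 231, 222 and 238 against 193, 209, 220.3, 204 and 173 CPM, without overlap. Rpn1 was at 318, 339.9, 316, 254 and 297 against 208, 235, 251, 258 and 158 CPM, and Herpud1 at 362, 349, 521, 473 and 481 against 267, 342, 342, 387 and 317 CPM, both with overlap. Edem1 was at 76.1, 111, 109, 75.8 and 121 against 78.7, 84.6, 81.4, 97.1 and 60.6 CPM. Atf4 went the other way in all but 1 library, at 98.6, 97.1, 90.7, 137 and 103 against 114, 123, 135, 132 and 151 CPM. Ddit3, at 18.5, 14.6, 29.5, 33.6 and 24.4 against 19.9, 24.2, 21.4, 16.8 and 22.3 CPM, and Lman1, at 46.9, 44.1, 40.4, 37.8 and 42.5 against 43.6, 39.4, 32.4, 40.0 and 38.1 CPM, overlapped.

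Heat shock genes of the cytosol went both ways in the same libraries. Hsph1 and Hspe1 lay above the other WT libraries in each of the 5, and the inducible Hspa1b below, at 1.12 to 38.0 against 53.6 to 198 CPM. The summed level over 8 genes, of which Hspa8 was the most abundant, was 4458 to 4918 CPM in the libraries labelled B-1b WT 1, B-1b WT 2 and B-2 WT 1, but at most 2195 CPM in B-1a WT libraries, those labelled WT 1 and WT 2 included. Of 8 immediate early genes, which cells switch on quickly when disturbed, 5 lay below in each of the 5 libraries (Fos, Fosb, Jun, Junb and Ier2) and 0 above, Fos at 14.1 to 72.1 against 94.7 to 114 CPM. The part of sample handling in these levels was not tested.

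**Figure D5:**
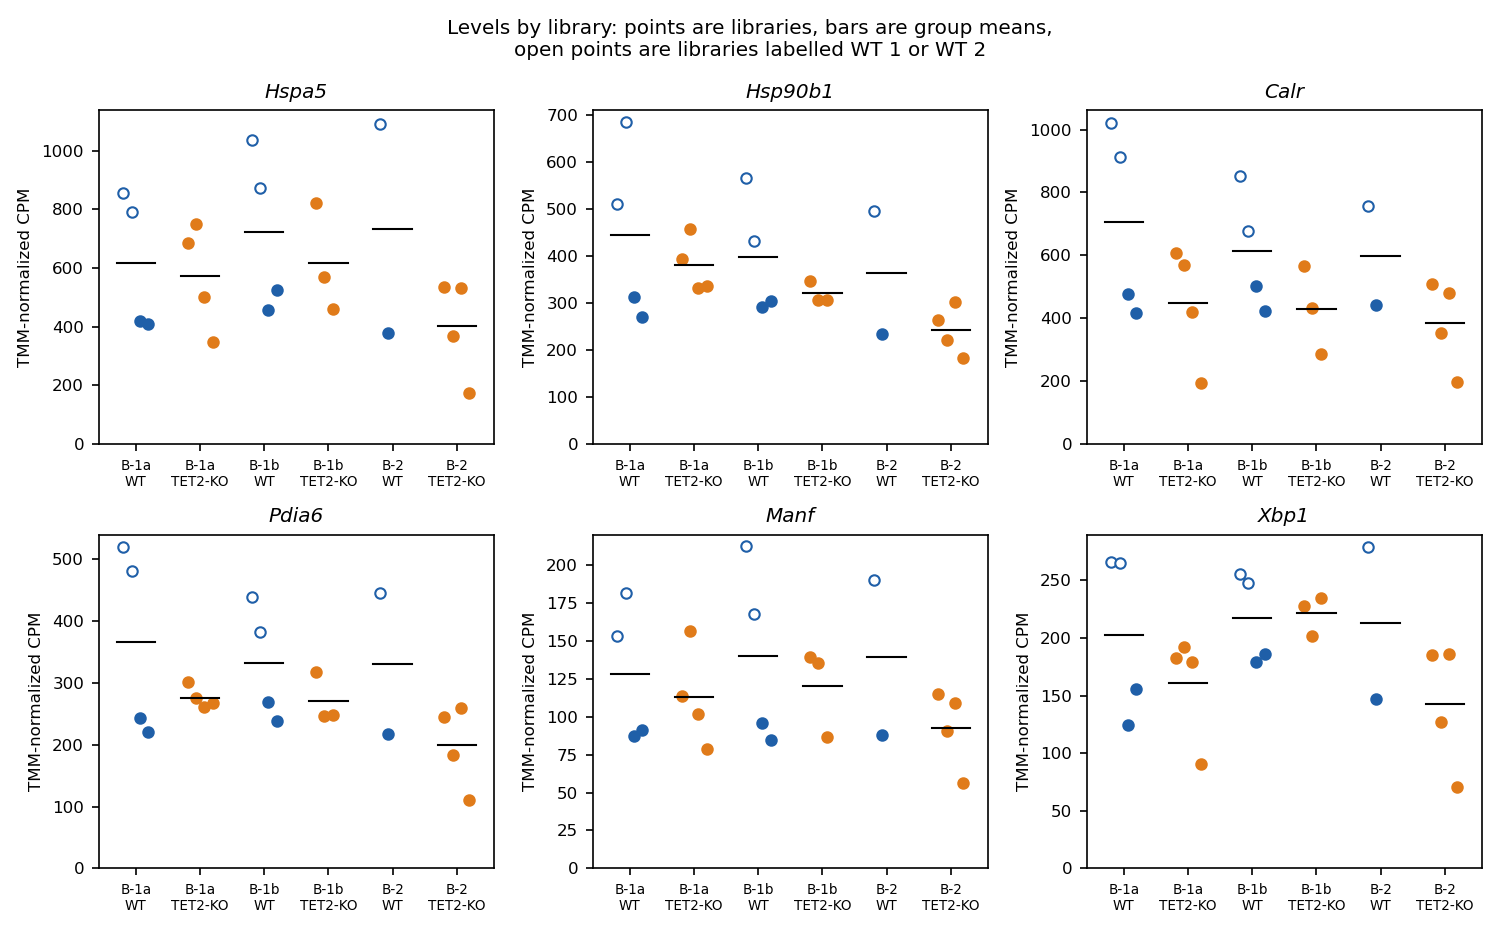
TMM-normalized CPM (y axis, from 0) of 5 chaperone and folding genes and of Xbp1 in each library by group; blue is WT, orange TET2-KO, open points are libraries labelled WT 1 or WT 2, and bars are group means. In each WT group the open points lie above the filled ones, for Hspa5 at 791 to 1092 against 377 to 526 CPM.

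Genes with and without an ERSE match had overlapping ranges of change. Between B-1a and B-2 TET2-KO cells the 10 carriers had a median log2 difference of 0.43 (range 0.19 to 1.98, 1 called) and the 25 genes with a window but no match a median of 0.37 (range -0.12 to 1.36, 2 called). For TET2-KO over WT the medians were -0.13 and -0.09 in B-1a cells, and -0.10 and -0.14 in B-1b cells. Pdia4 and Edem1, both called between B-1a and B-2 cells, had a window and no ERSE match, and Spcs3 and Atf6 had no window.

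Counting left out reads that overlap 2 genes, which bears on 8 of the 44 genes whose exons share over 5% of their length with another gene: Spcs1 (16.3%), Hsp90b1 (15.7%), Ssr2 (12.8%), Syvn1 (11.1%), Ddit3 (10.9%), Manf (9.25%), Sec61a1 (8.16%) and Rpn2 (5.46%). Strand was not used, so reads of antisense genes there cannot be told apart.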

How the data were processed

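RNA was measured in 21 libraries of sorted B cells of 2 genotypes. The authors used fastp for trimming, STAR for alignment to GRCm39 and featureCounts 1.6.1 on GENCODE vM32 for counting, without strand; multi-mapping fragments and those shared between genes were dropped. The deposited files hold these raw counts per gene. The labels describe poly-T selected RNA and the methods amplified full-length cDNA, so which step shaped the libraries is uncertain, and the aligner's version is not given in the sources used here. Groups were taken from the labels, and symbols from GENCODE vM39. Symbols were found for 56310 of 56953 identifiers, and 0 pairs of libraries were identical.

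The main test was the quasi-likelihood F-test of edgeR 4.0.16 with robust dispersions, run in R 4.3.3 with limma 3.58.1 after TMM scaling and filterByExpr; p-values were adjusted over all genes by the method of Benjamini and Hochberg and called under 0.05. Fits for genotype used the libraries of a subset, those for subsets all libraries of a genotype, and the interaction both B-1 subsets. The alternatives were DESeq2 1.42.0, other size factors, TMM without immunoglobulin genes, no filter, all libraries in 1 fit, a replicate block and each library left out, and, chosen after seeing the data, fits without libraries that stood apart. The scripts were tested on simulated data. Levels are CPM with TMM over all libraries; their precision is set by the spread between libraries, since the lowest count of a member was 74.

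Replicate numbers were taken to pair libraries where each same-numbered pair correlated above 0.1. This held for B-1a with B-2 (0.352 to 0.680, 4 pairs) and with B-1b (0.286 to 0.516, 3 pairs) TET2-KO libraries, and not between genotypes. Among WT libraries it held for B-1b with B-2 (0.218 to 0.600, 2 pairs), where the library labelled B-2 WT 1 is included. It did not hold for B-1a WT with B-1b WT or B-2 WT libraries. With only 2 B-2 WT libraries, their deviations from the group mean are exact opposites. The 2 pairs of B-1b with B-2 WT libraries are therefore not independent and do not establish pairing. The pairing is read from the data, since the labels do not say what a number marks.

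The members and lists were chosen with earlier results of these data known. Any member may be named; levels by library are given for 14 fixed representatives and, in each comparison, for at most 5 members called in each direction, or the 3 with the smallest p where fewer than 3 were called; of the other secretory genes, Xbp1, Mzb1 and at most 4 called in each direction. Marker lists were also counted between B-1a and B-2 TET2-KO cells: 6 of 8 B-1, 1 of 8 T cell and 1 of 8 cytosolic heat shock markers were higher, 5 of 5 B-2 and 1 of 6 dendritic cell markers lower, and 0 of the B cell, macrophage, mast cell, erythroid, proliferation and immediate early markers were called; 1 marker each of the B cell and B-2 lists is not reported here. Promoter windows are those of RefSeq, GRCm38.p6, 250 bases before to 50 after each start, and only the first 250 are printed.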

Additional observations from a re-analysis of the deposited data

Results flagged for a closer look

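In groups of 4 libraries, 92 sets of levels were checked for a library far from the other 3, and 6 were found, which is near the 1 in 20 that chance gives. In the library labelled B-1a WT 2, Derl3 was at 48.8 CPM against 16.6 to 18.1 in the other B-1a WT libraries, and Pdia4 at 941 against 614 to 667. In that labelled B-1b WT 1, Rpn1 was at 316 CPM against 251 to 258, Sec11c at 602 against 391 to 421, and Atf4 at 90.7 against 132 to 137. Both are among the 5 libraries whose markers or olfactory reads stood apart. In B-1a TET2-KO 4, Xbp1 was at 90.5 CPM against 179 to 192 in the other B-1a TET2-KO libraries.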

How the results depend on the processing

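In the 3 genotype comparisons the count of members called was 0 throughout, except in B-2 cells, where it was 3 with no filter on low counts (Derl3, Spcs3 and Pdia4) and 0 to 1 with a library left out (1 without B-2 WT 4, when the WT arm is the lone library labelled B-2 WT 1, assumed to vary like the others). The median in B-1b cells moved from -0.15 to 0.07 without the libraries labelled WT 1 and WT 2. Between B-1a and B-2 TET2-KO cells the 5 calls became 12 with the replicate block, 4 to 6 with a library left out, 7 with DESeq2 and 0 without B-2 TET2-KO 2 and 4. Between B-1b and B-2 cells the 3 calls became 5 with DESeq2, 5 with the replicate block, 0 with all 21 libraries in 1 fit, 0 without B-2 TET2-KO 2 and 4, and 1 to 5 with a library left out: 1 without B-2 TET2-KO 2 or B-1b TET2-KO 3, and 5 without B-2 TET2-KO 3. Without B-1a TET2-KO 4 and B-1b TET2-KO 3, 6 members were called in B-1a and 4 in B-1b against B-2 cells. In that fit 2186 and 702 of 21034 genes were called, and the medians over the members were 0.51 and 0.47. Between the B-1 subsets the replicate block changed no call, and in WT cells the count rose from 0 to 1 (Sel1l) without the libraries labelled WT 1 and WT 2, where Ddit3 turned from -0.39 to 0.22. Mzb1 and Atf3 were called in B-1a against B-2 cells under each of the 16 alternatives. In B-1b against B-2 cells each of these calls was lost in 2 of 15 alternatives. The causes were not tested.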

Other observations

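Ern1, which encodes the sensor IRE1, was chosen after its values were seen. In B-1a cells it was at 7.50, 10.6, 10.6 and 8.83 CPM in TET2-KO and at 4.81, 5.13, 4.56 and 5.04 CPM in WT libraries. The groups did not overlap, with or without the libraries labelled WT 1 and WT 2, but the log2 fold change of 0.98 ± 0.22 did not pass (edgeR, adjusted p = 0.180). In B-1b cells it was at 4.73, 7.61 and 12.2 against 2.07, 1.55, 5.17 and 4.03 CPM, with overlap (1.38 ± 0.51, adjusted p = 0.838). In B-2 cells TET2-KO values of 2.71 to 5.50 CPM surrounded the 2 WT values, 4.88 and 4.17. Within the TET2-KO libraries Ern1 was higher in B-1a than in B-2 cells by 1.25 ± 0.35 on the log2 scale (adjusted p = 0.0501).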
